A study of Homo sapiens with 12 samples.

Results

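The 10 genes described here belong to the response to low oxygen and to glycolysis, and were followed in human cerebral organoids (COs) with and without an edit in *c-JUN*. They were taken by gene symbol from a list made with earlier results of these data known, so the choice was not blind. They are the glucose transporters *SLC2A3* and *SLC2A1*, the glycolytic enzymes *ALDOA*, *PGK1*, *ENO1* and *LDHA*, and the kinase *PDK1*. The others are the secreted factors *ADM* and *VEGFA*, and the mitochondrial protein *BNIP3*. All 10 were among the 10976 genes of every library. The data are 12 RNA libraries of pooled COs from 3 lines, with 2 libraries per line on day 12 and 2 on day 24 of the culture. WT was H1, an established human embryonic stem cell line. KO#2 and KO#10 were lines made from H1 with CRISPR/Cas9 aimed at *c-JUN*, each of them 1 clone. All 3 lines went through the same induction of COs, so that by their labels the groups differed only in line and day. Both clones together are called KO, which gave 4 KO and 2 WT libraries on each day. As WT was 1 line and KO 2 clones, an effect of the edit cannot be told apart from other differences between these lines. No label says that the replicates came from separate inductions, and the *p*-values then measure only the spread between these libraries, which may be technical.

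The deposited values were whole numbers without a unit that had already been normalised. Every library had the same median of 17 and the same highest value of 5585, so that the sequencing depth is unknown. The targeted gene went against its label. *JUN*, a subunit of the AP-1 transcription factor, had values of 13 and 15 in the day 24 libraries labelled WT, 39 and 39 in those labelled KO#2, and 29 and 32 in those labelled KO#10. On day 12 it was 4 and 8 in WT, against 19 and 18 in KO#2 and 14 and 13 in KO#10. KO and WT therefore refer to the labels throughout. The RNA level of an edited gene does not show its protein. The 7 neural progenitor markers were all measured, with sums of 528 to 1070 in the 12 libraries. These sums had no comparator and do not check the labelled tissue. In WT on day 24 *VIM* alone was 316 and 354 of sums of 703 and 528, while *PAX6* was 40 and 34 and *SOX1* 4 and 1.

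As background, cells that lack oxygen keep the transcription factor subunits HIF1A and EPAS1, which the EGLN enzymes otherwise mark for degradation. These subunits pair with ARNT or ARNT2, bind a short DNA motif and raise genes for glucose uptake, for glycolysis, for the diversion of pyruvate from mitochondria and for new vessels. Glycolysis is also high in pluripotent stem cells and neural progenitors and lower in most neurons, and organoids have no blood flow.

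DNA upstream of the members shows what the motif looks like. The core of the HIF motif was searched as the letters ACGTG or GCGTG on both strands, in the bases 250 to 51 before the gene's start in RefSeq (GRCh38.p14). Windows were found for 8 of the 10 members, and none for *SLC2A3* and *VEGFA*, which were not searched. The sequences below are the part of that window that lies before the first exon in GENCODE release 29, read 5′ to 3′ on the gene's strand, with each match in capitals (a CACGTG is a match on both strands). They are shown because *PGK1* passed the test on day 24, *BNIP3* had the most matches and *LDHA* had the next most.
*PGK1* (chrX:78103998-78104173, plus strand): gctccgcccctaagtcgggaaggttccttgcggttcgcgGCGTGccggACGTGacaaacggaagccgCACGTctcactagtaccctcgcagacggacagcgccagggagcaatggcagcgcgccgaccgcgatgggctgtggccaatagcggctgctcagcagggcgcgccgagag
*BNIP3* (chr10:131982014-131982173, minus strand): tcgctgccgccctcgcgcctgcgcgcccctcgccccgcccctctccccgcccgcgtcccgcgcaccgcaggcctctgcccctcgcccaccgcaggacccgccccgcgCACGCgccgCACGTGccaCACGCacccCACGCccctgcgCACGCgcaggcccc
*LDHA* (chr11:18394313-18394387, plus strand): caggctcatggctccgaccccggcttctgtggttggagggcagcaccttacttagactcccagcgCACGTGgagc

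The *PGK1* stretch held 3 matches, the *BNIP3* stretch 6 and the *LDHA* stretch 2. Over the whole windows of 200 bases, *LDHA* held 5 at one of its starts and 1 at the other, *ENO1* 2, *ADM* 1 and *ALDOA* 1, 2 and 1 at its 3 starts. No match was found at *SLC2A1* or at either start of *PDK1*. In all, 9 of the 12 member windows held a match, beside 35.8% of the 35116 RefSeq windows of the same length. Of these 9, 3 belonged to *ALDOA* and 2 to *LDHA*. A match is only a string of letters, and its absence says nothing of the factor.

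On day 24 *SLC2A3* and *PGK1* were lower in KO than in WT COs. *SLC2A3*, the high-affinity glucose transporter also known as GLUT3, was 7.44-fold lower, and *PGK1*, the enzyme of the first ATP-yielding step of glycolysis, was 2.93-fold lower on the log2(value + 1) scale. These were 2 of the 10 members, and 3.79% of the 9289 genes tested were lower. All 10 members had a lower mean log2 level in KO, with a median log2 difference of -0.84, beside 0.01 over all genes tested. In 6 members, *SLC2A3*, *PGK1*, *ALDOA*, *ADM*, *PDK1* and *BNIP3*, all KO values were under both WT values. The same held for 21.8% of all genes tested. A call, here and below, needed an adjusted *p* (limma, Benjamini-Hochberg over all genes tested) under 0.05 and a log2 difference of at least 1 in size. The count of members called depended on single libraries: it was 0 without WT replicate 2, 4 without KO#10 replicate 1 (with *ADM* and *LDHA* added), and 1 without any 1 of the other 4 libraries. With the replicates compared only within their own number, 9 of the 10 members had a negative difference in both numbers, the exception being *VEGFA*. On day 24 the numbers did not pair the libraries, so this is only a split of the same libraries and adds no separate support. In bulk RNA, fewer cells of a type and less RNA per cell cannot be told apart.

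**Figure D1:**
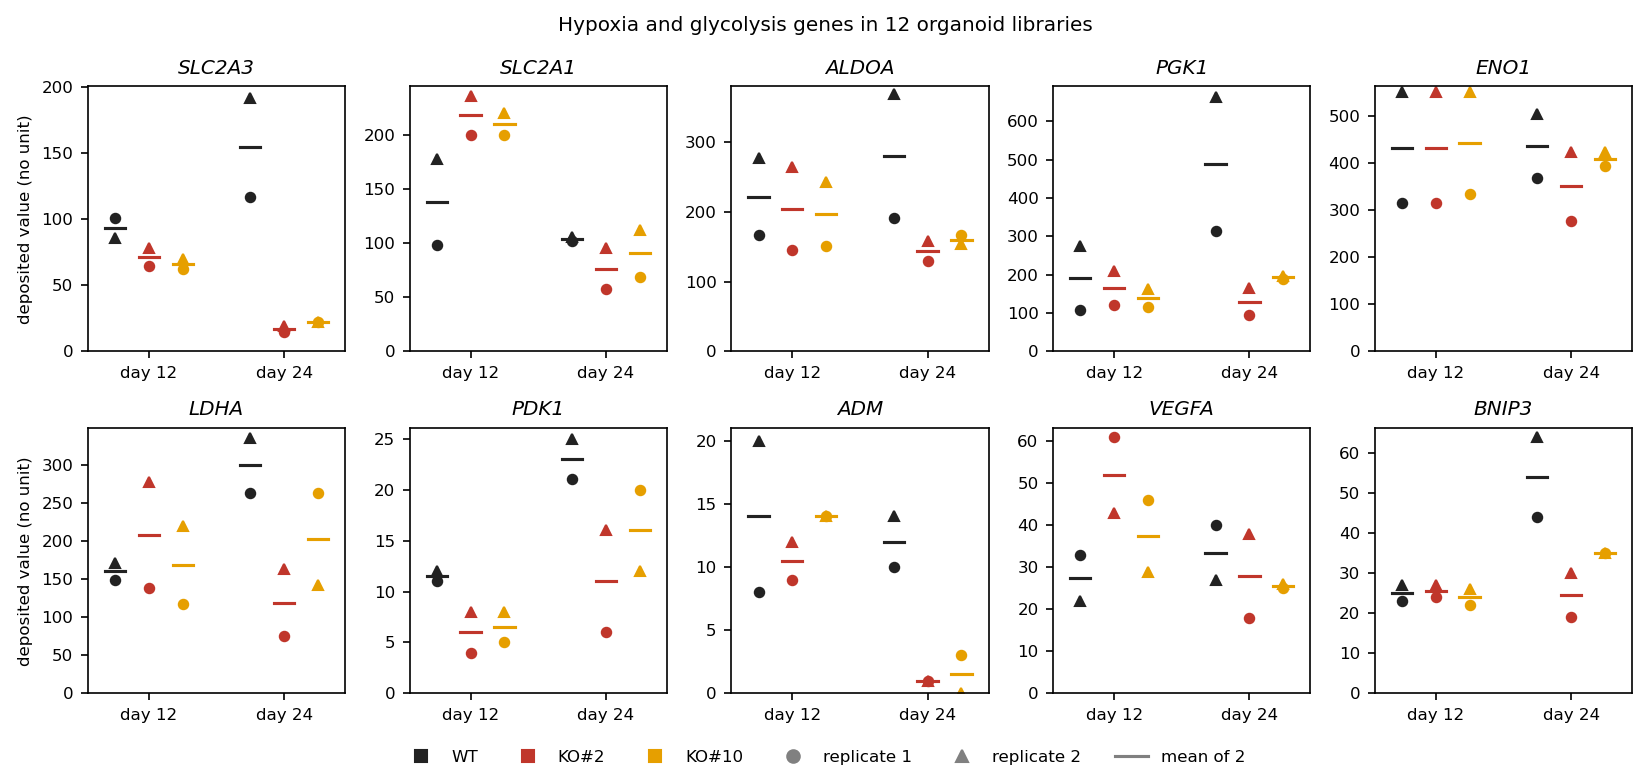
Deposited value (linear axis from 0, no unit) of each member in the 12 libraries, by line and day. Circles are replicate 1, triangles replicate 2 and short lines the mean of both; on day 24 *SLC2A3* is 117 and 192 in WT and 15 to 22 in the 4 KO libraries, whereas *ENO1* overlaps between the lines.

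The glucose transporters parted. On day 24 *SLC2A3* (chr12:7919230-7936187 as deposited, minus strand) was 117 and 192 in WT, against 15 and 19 in KO#2 and 22 and 22 in KO#10. The 4 KO values lay close together and far below both WT values, at 19.5 ± 3.32 (SD, n = 4) against 154.5 ± 53.0 (SD, n = 2). The log2 difference was -2.90 ± 0.24 (SE), with an adjusted *p* of 0.00538. *SLC2A1*, the basal glucose transporter GLUT1, was 102 and 106 in WT, against 58 and 95 in KO#2 and 69 and 112 in KO#10. The groups overlapped through 1 KO#10 library, and the log2 difference of -0.36 ± 0.26 (SE) had an adjusted *p* of 0.346. *SLC2A14*, a near-identical copy of *SLC2A3*, was not analysed here, and reads that both share may have been counted in *SLC2A3*.

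Among the glycolytic enzymes, *PGK1* (chrX:77910739-78129295 as deposited, plus strand) was 315 and 664 in WT on day 24, against 94 and 166 in KO#2 and 190 and 198 in KO#10. Every KO value was below both WT values, although the WT libraries themselves differed widely. The log2 difference was -1.55 ± 0.39 (SE), with an adjusted *p* of 0.0424, and the gene was no longer called when any 1 library other than KO#10 replicate 1 was left out. *ALDOA*, the aldolase that splits fructose bisphosphate, was 192 and 369 in WT, against 130 and 158 in KO#2 and 167 and 154 in KO#10. These groups did not overlap either, but the log2 difference of -0.81 ± 0.26 (SE) missed the threshold, with an adjusted *p* of 0.0692. *LDHA*, which turns pyruvate into lactate, was 264 and 336 in WT, against 75 and 164 in KO#2 and 264 and 142 in KO#10. One KO#10 library had exactly the value of the lower WT library, and the adjusted *p* of the log2 difference of -1.02 ± 0.44 (SE) was 0.137. *ENO1*, an enolase, was 368 and 505 in WT, against 277 and 424 in KO#2 and 393 and 424 in KO#10. The enolase groups overlapped, with a log2 difference of -0.20 ± 0.22 (SE) and an adjusted *p* of 0.518. *ENO1*, *LDHA*, *PGK1* and *ALDOA* have processed pseudogenes, and reads shared with those could be split by the counting.

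The members that act beside glycolysis showed the same direction without passing the test. *PDK1*, the kinase that holds pyruvate dehydrogenase inactive, was 21 and 25 in WT on day 24, against 6 and 16 in KO#2 and 20 and 12 in KO#10. Its groups were separated by a single unit, between 20 and 21, and the adjusted *p* was 0.180. *ADM*, which encodes the vessel-dilating peptide adrenomedullin, was 10 and 14 in WT, against 1 and 1 in KO#2 and 3 and 0 in KO#10. All 4 KO libraries were near 0, the log2 difference was -2.68 ± 0.76 (SE) and the adjusted *p* was 0.0554. Since the KO values were so low, the size of this difference depended on the constant added before the logarithm: it was -1.45 with 5 added, -2.68 with 1 and -3.93 with 0.1. *BNIP3*, which marks mitochondria for removal, was 44 and 64 in WT, against 19 and 30 in KO#2 and 35 and 35 in KO#10, with a log2 difference of -0.85 ± 0.28 (SE) and an adjusted *p* of 0.0750. *VEGFA*, the main growth factor for vessels, was 40 and 27 in WT, against 18 and 38 in KO#2 and 25 and 26 in KO#10. Its groups overlapped and its log2 difference was -0.34 ± 0.29 (SE), with an adjusted *p* of 0.426. *ADM* passed the filter on low values on day 24 only through the WT libraries.

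**Figure D2:**
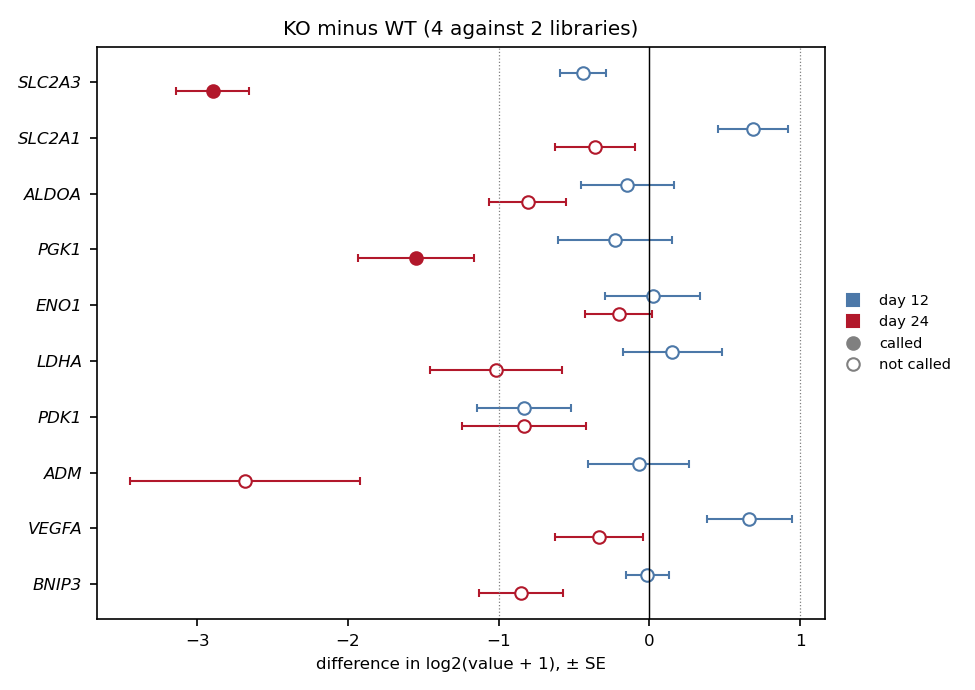
Difference KO minus WT in log2(value + 1) for each member, with its standard error (bars), on day 12 (blue) and day 24 (red), from 4 KO and 2 WT libraries per day. Filled points were called and dotted lines mark a difference of 1; on day 24 all 10 points lie left of 0 and *SLC2A3* (-2.90) and *PGK1* (-1.55) are filled, and on day 12 none is filled.

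On day 12, in contrast, no member was called in either direction between KO and WT, and 0.09% of the 8885 genes tested were called at all. No member had a log2 difference of 1 in size, so the count at this limit was 0 whatever the *p*-values. The unadjusted limma *p* was under 0.05 for *SLC2A1* (0.0175), *SLC2A3* (0.0197), *PDK1* (0.0283) and *VEGFA* (0.0468), and for no other member. The difference was negative for 6 members and positive for 4, with a median of -0.04 on the log2 scale. The values of *SLC2A3* and *PDK1* nonetheless did not overlap between the groups. *SLC2A3* was 101 and 86 in WT, against 65 and 78 in KO#2 and 62 and 70 in KO#10, each KO library below both WT libraries, with a log2 difference of -0.44 ± 0.15 (SE) and an adjusted *p* of 0.336. *PDK1* was 11 and 12 in WT, against 4 and 8 in KO#2 and 5 and 8 in KO#10, also without overlap, with a log2 difference of -0.83 ± 0.31 (SE) and an adjusted *p* of 0.378. Every KO library lay below every WT library in 8.34% of the genes tested.

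*SLC2A1* was placed the other way on day 12, with 98 and 178 in WT, against 200 and 236 in KO#2 and 200 and 220 in KO#10. All 4 KO values were above both WT values, as in 8.23% of the genes tested, and the log2 difference of 0.69 ± 0.23 (SE) had an adjusted *p* of 0.321. *VEGFA* was 33 and 22 in WT, against 61 and 43 in KO#2 and 46 and 29 in KO#10, so that 1 KO#10 library fell between the WT libraries. Its log2 difference was 0.66 ± 0.28 (SE) with an adjusted *p* of 0.446. *PDK1* passed the filter on low values on day 12 only through the WT libraries.

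The other 6 members had log2 differences from -0.23 for *PGK1* to 0.15 for *LDHA* on day 12. *PGK1* was 109 and 276 in WT, against 120 and 211 in KO#2 and 116 and 162 in KO#10. *ALDOA* was 167 and 277, 146 and 264, and 152 and 243 in the same order. *ENO1* was 316 and 550 in WT, against 316 and 550 in KO#2 and 335 and 550 in KO#10, and *LDHA* was 149 and 172, 139 and 278, and 118 and 220. In all 3 lines these 4 enzymes were higher in replicate 2 than in replicate 1. *BNIP3* was 22 to 27 over the 6 libraries, and *ADM* was 8 to 20, with the lowest and the highest value both in WT. Because libraries with the same number varied together on day 12, the fit was repeated with the replicate number as a block. It still called no member, the lowest adjusted *p* being 0.0761 for *SLC2A1*, whereas the genes called over the whole table went from 2 higher and 6 lower to 36 higher and 35 lower.

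From day 12 to day 24 the mean log2 level was higher for 8 of the 10 members in WT and lower for 7 of the 10 in KO. In WT, *PGK1* and *BNIP3* rose, which was 2 of the 10 members, beside 7.17% of the 9952 genes tested. *PGK1* rose from 109 and 276 to 315 and 664, with a log2 difference of 1.39 ± 0.48 (SE) and an adjusted *p* of 0.0463. *BNIP3* rose from 23 and 27 to 44 and 64, with a log2 difference of 1.06 ± 0.27 (SE) and an adjusted *p* of 0.0124. Both day 24 values exceeded both day 12 values for *PGK1*, *BNIP3*, *SLC2A3*, *LDHA* and *PDK1*, and so did 32.1% of all genes tested. *SLC2A3* had an adjusted *p* of 0.0482, but its log2 difference of 0.68 ± 0.24 (SE) was under the limit of 1. For *LDHA* the log2 difference was 0.89 with an adjusted *p* of 0.181, and for *PDK1* 0.94 with an adjusted *p* of 0.117. In *SLC2A1*, *ADM*, *ALDOA*, *ENO1* and *VEGFA* the WT values of both days overlapped. Over the 10 members the median log2 difference in WT was 0.49, beside 0.02 over all genes tested. Both calls were lost without WT day 12 replicate 1 and without WT day 24 replicate 2. That of *PGK1* was lost as well without KO#2 replicate 1, KO#10 replicate 1 or KO#10 replicate 2 of day 12, and without replicate 2 of either clone of day 24. When only the WT libraries were fitted, neither was called, and that of *BNIP3* was also lost with 5 added before the logarithm.

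In KO, *SLC2A3*, *SLC2A1* and *ADM* fell, 3 of the 10 members, beside 5.59% of all genes tested. *SLC2A3* fell from 62 to 78 over the 4 KO libraries of day 12 to 15 to 22 on day 24, a log2 difference of -1.78 ± 0.17 (SE) with an adjusted *p* of 2.46e-05. *SLC2A1* fell from 200 to 236 on day 12 to 58 to 112 on day 24, with a log2 difference of -1.39 ± 0.21 (SE) and an adjusted *p* of 0.000548. *ADM* fell from 9 to 14 on day 12 to 0 to 3 on day 24, with a log2 difference of -2.71 ± 0.38 (SE) and an adjusted *p* of 0.000348. The day 24 values of each lay below all day 12 values, which was true of 15.6% of all genes tested. *PDK1* differed the other way, by 0.94 ± 0.30 (SE) with an adjusted *p* of 0.0295, and *VEGFA* by -0.72 ± 0.25 (SE) with an adjusted *p* of 0.0406, both under the limit on the fold. *PGK1* (0.08), *BNIP3* (0.22), *ENO1* (-0.18), *LDHA* (-0.28) and *ALDOA* (-0.36) had small log2 differences that missed the threshold. The 3 calls held in each alternative run on this comparison that tested the gene, including the removal of any 1 library.

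**Figure D3:**
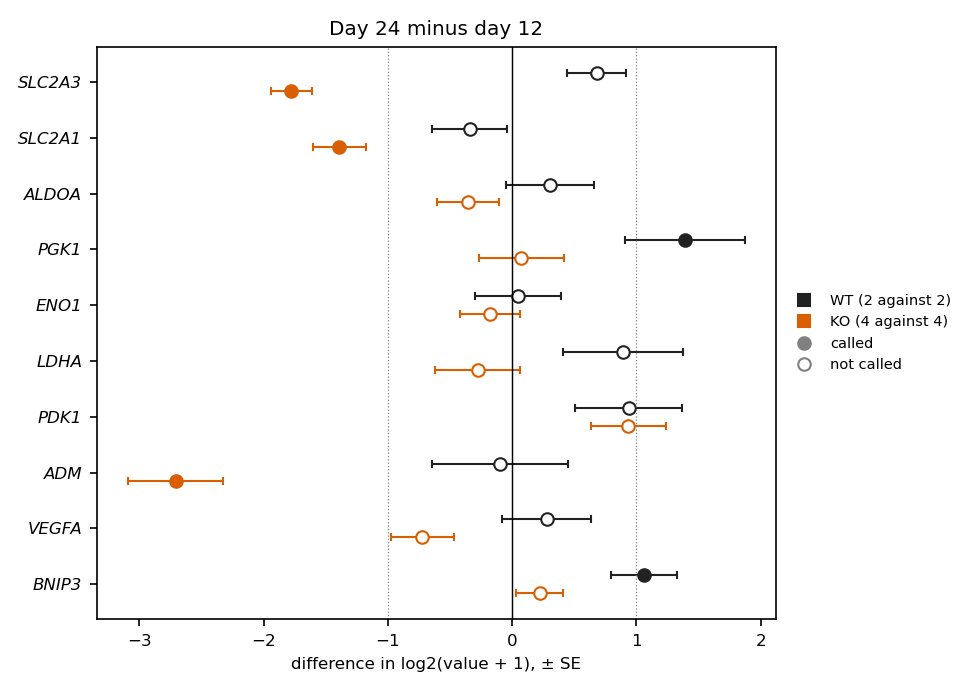
Difference day 24 minus day 12 in log2(value + 1) for each member, with its standard error (bars), in WT (black, 2 against 2 libraries) and in KO (orange, 4 against 4). Filled points were called and dotted lines mark a difference of 1; *PGK1* and *BNIP3* are filled on the right in WT, and *SLC2A3*, *SLC2A1* and *ADM* on the left in KO.

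Whether the days differed by genotype was tested as an interaction over all 12 libraries. *SLC2A3* was called, 1 of the 10 members, beside 0.854% of all genes tested that had a lower KO minus WT difference on day 24 than on day 12. Its interaction was -2.46 ± 0.29 (SE) on the log2 scale, with an adjusted *p* of 0.00269, and it kept its call in all 22 alternatives. *ADM* had an interaction of -2.61 ± 0.67 (SE) with an adjusted *p* of 0.0680, *PGK1* of -1.32 ± 0.59 (SE) with 0.219, and *SLC2A1* of -1.05 ± 0.37 (SE) with 0.138. *PDK1*, whose WT and KO values changed by the same 0.94, had an interaction of -0.0020 ± 0.53 (SE). A difference in the change between WT and KO was thus shown for *SLC2A3* and not for the other 9. That *PGK1* passed in WT and *SLC2A1* in KO does not by itself show that their changes differed.

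Both clones were also set against the same WT libraries one at a time on day 24. *SLC2A3* was lower in KO#2, by a log2 difference of -3.08 ± 0.26 (SE) with an adjusted *p* of 0.0214, and lower in KO#10, by -2.71 ± 0.26 (SE) with an adjusted *p* of 0.0401. *PGK1* was lower in KO#2, at -1.86 ± 0.42 (SE) with an adjusted *p* of 0.0450. In KO#10 the *PGK1* difference was -1.23 ± 0.42 (SE) with an adjusted *p* of 0.164. In KO#2 these were 2 of 10 members, beside 4.26% of all genes tested, and in KO#10 1 of 10, beside 0.14%. The KO#10 call of *SLC2A3* was lost when any 1 of the 6 libraries was left out, and the KO#2 call of *SLC2A3* without any 1 WT or KO#2 library. The KO#2 call of *PGK1* was lost in 8 of 16 alternatives, with any 1 of the 6 libraries left out, with no filter and with no variance trend. *BNIP3* had an adjusted *p* of 0.0519 in KO#2 at a log2 difference of -1.12, and of 0.249 in KO#10 at -0.59. For *LDHA* these were 0.0816 at -1.42 in KO#2 and 0.424 at -0.62 in KO#10. KO#2 and KO#10 were compared directly as well, and limma called none of the 10 members and none of all genes tested on either day. At an unadjusted *p* under 0.05 with the same limit on the fold, 44 genes were higher and 35 lower in KO#2 than in KO#10 on day 24 and 4 higher and 3 lower on day 12, with 0 members in either direction. With 2 libraries per clone, this does not show that the clones were alike.

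The rest of the pathway was read from lists of related genes. On day 24, 3.79% of all genes tested were lower in KO and 4.22% higher, the shares to set beside each day 24 list below. A single call in a short list says little about that list. Of the other 16 glycolysis genes tested on day 24, 1 was lower in KO and 0 were higher, with a median log2 difference of -0.23. It was *PFKP*, a subunit of the phosphofructokinase that commits glucose to glycolysis, at 41 and 38 in WT, against 6 and 14 in KO#2 and 17 and 13 in KO#10, with a log2 difference of -1.67 ± 0.36 (SE) and an adjusted *p* of 0.0316. Of the 4 other transporters of glucose and lactate that were tested, *SLC16A3*, the lactate exporter MCT4, was lower. It was 29 and 26 in WT, against 9 and 10 in KO#2 and 15 and 9 in KO#10, with an adjusted *p* of 0.0218. Both of these genes had no overlap between the groups.

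Among 19 further targets of HIF tested on day 24, 2 were lower in KO and 0 higher, beside 3.79% of all genes lower. Their median log2 difference was -0.40. *P4HA1*, a subunit of the enzyme that hydroxylates collagen, was 107 and 108 in WT, against 18 and 29 in KO#2 and 50 and 34 in KO#10, with a log2 difference of -1.77 ± 0.35 (SE) and an adjusted *p* of 0.0273. *NDRG1*, a stress-responsive gene, was 26 and 19 in WT, against 6 and 4 in KO#2 and 10 and 5 in KO#10, with an adjusted *p* of 0.0251. Of 10 other genes of pyruvate entry into mitochondria, 1 was lower and 0 higher. It was *MPC2*, a subunit of the mitochondrial pyruvate carrier, at 50 and 42 in WT, against 13 and 17 in KO#2 and 17 and 17 in KO#10, with a log2 difference of -1.47 ± 0.16 (SE) and an adjusted *p* of 0.0148. The 7 genes of the pentose phosphate route gave 0 calls in either direction and a median log2 difference of -0.32.

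The regulators of HIF gave 1 call in each direction among 10 tested on day 24, and 4.22% of all genes tested were higher. *EPAS1*, which encodes HIF-2α, was 17 and 20 in WT, against 3 and 2 in KO#2 and 6 and 3 in KO#10, with a log2 difference of -2.18 ± 0.38 (SE) and an adjusted *p* of 0.0224. *EPAS1* and *NDRG1* passed the filter on low values on day 24 only through the WT libraries, as did 205 of the 352 genes called lower over the whole table. *ARNT2*, the partner subunit common in neural cells, was higher, at 16 and 10 in WT, against 31 and 36 in KO#2 and 21 and 28 in KO#10, with an adjusted *p* of 0.0366. *HIF1A*, named here for its role and after its values were seen, had a log2 difference of -0.31 ± 0.17 (SE) with an adjusted *p* of 0.218. The *ARNT2* call was lost in 7 of 17 alternatives, among them the replicate block, 5 added before the logarithm and the removal of either WT library. The 6 calls of other pathway genes that were lower on day 24 were each lost in 3 to 5 alternatives, and all 7 calls without replicate 2 of either clone. On day 12 none of these lists had a gene called between KO and WT.

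Further genes of these lists were called over time. From day 12 to day 24 in WT, 7.17% of all genes tested rose. Of 20 further HIF targets, 6 rose and 0 fell, with a median log2 difference of 0.62. They were *NDRG1* (2.25 on the log2 scale), *P4HA1* (1.93), *FAM162A* (1.77), *P4HA2* (1.76), *PLOD2* (1.21) and *JMJD6* (1.12). *P4HA2* and *PLOD2* also modify collagen. Rises were also called for *EPAS1* and *EGLN1* among the regulators and for *ALDOC* and *PFKP* among the glycolysis genes. So were those of *SLC16A3* among the transporters and of *MPC1* and *MPC2*, the carrier's pair of subunits. *NDRG1*, *P4HA2* and *EPAS1* passed the filter on low values only through the WT libraries of day 24, where they were high. Of these rises, those of *NDRG1*, *P4HA1*, *MPC2* and *SLC16A3* were called in each alternative that tested them, and the others were lost in 1 to 5. In KO, the further HIF targets *MXI1* and *FAM162A* rose and *EGLN3* and *STC2* fell, of 20 tested. Over all genes tested, 5.88% were higher and 5.59% lower. *MPC1*, *EGLN1*, *ALDOC* and *LDHB* rose in KO as well, and the muscle enolase *ENO3* fell by 2.06 on the log2 scale. The KO values of *ALDOC* (4 to 15 on day 12, 9 to 36 on day 24) and *LDHB* overlapped between the days, and their calls were lost in 12 of 22 and 5 of 23 alternatives. The pentose phosphate list had 0 calls over time in either genotype. *LDHB* sat on the highest values that several genes share in each library, where steps are coarse.

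Beside *SLC2A3*, the interaction of genotype and day was called for 4 of these genes, each with a lower KO minus WT difference on day 24. They were *NDRG1* (-2.03 ± 0.44 SE, adjusted *p* 0.0469), *P4HA1* (-1.97 ± 0.41 SE, adjusted *p* 0.0393), *MPC2* (-1.69 ± 0.31 SE, adjusted *p* 0.0284) and *SLC16A3* (-1.63 ± 0.36 SE, adjusted *p* 0.0479). Unlike that of *SLC2A3*, these calls were often lost: in 13 of 21 alternatives for *NDRG1*, 11 of 22 for *P4HA1*, 7 of 21 for *MPC2* and 14 of 21 for *SLC16A3*, most of them removals of 1 library. On day 12 their values were close in all lines, for example 26 to 41 for *P4HA1* and 3 to 6 for *NDRG1*. The WT values of day 24 stood above the rest, and *NDRG1* passed the filter on low values only through those libraries.

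**Figure D4:**
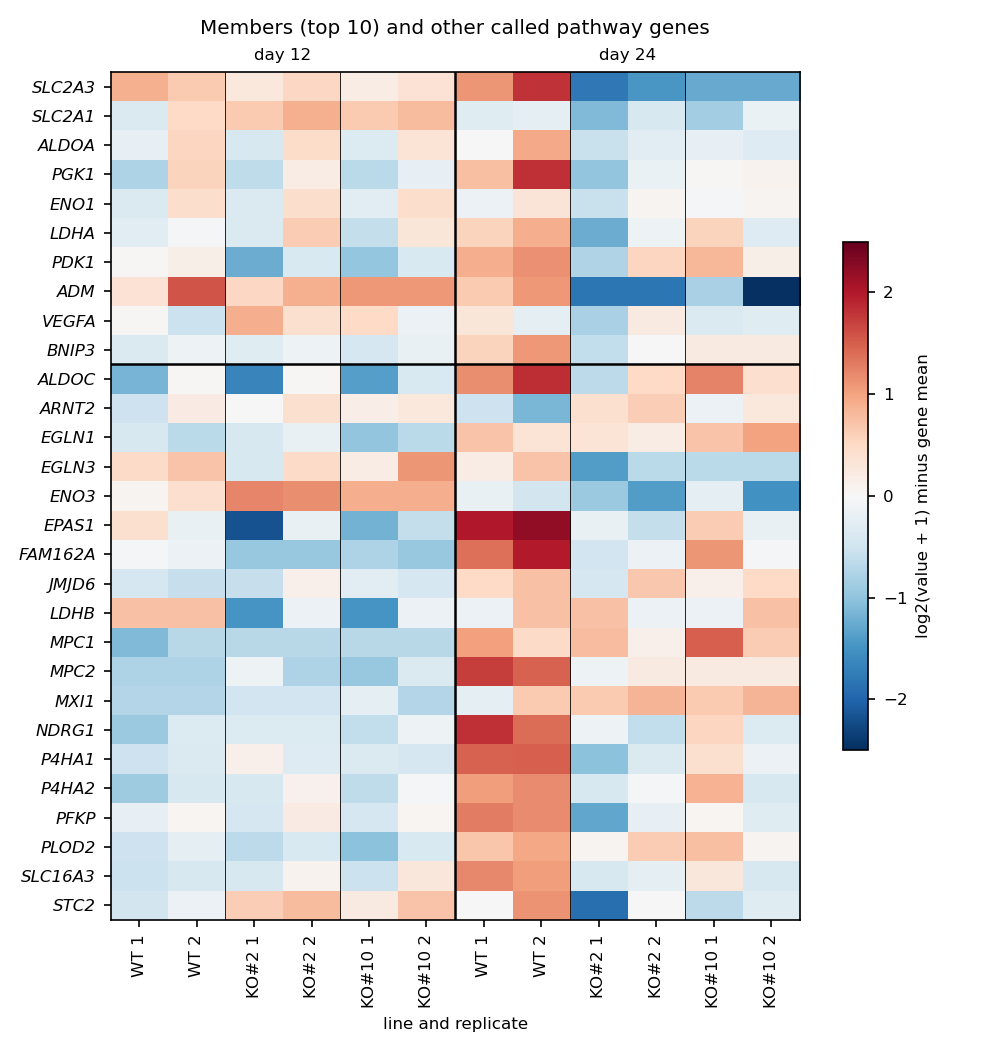
log2(value + 1) minus the gene's mean over the 12 libraries (colour), for the 10 members (above the line) and the 19 other pathway genes called in at least 1 of the 5 main comparisons (below it), by line and replicate on each day. The 2 WT columns of day 24 are red for *SLC2A3*, *PGK1*, *P4HA1*, *NDRG1*, *MPC2* and *EPAS1*, and the 4 KO columns beside them are blue or pale.

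Several lists of cell type markers and the list of cell stress also differed between KO and WT on day 24. Some were lower and some higher in KO, and the mesenchyme sums overlapped. On day 24 the 7 measured markers of endoderm and yolk sac (of 8 listed) summed to 6896 and 7150 in WT. In KO they summed to 33 to 1229, and 4 were lower. *AFP* alone was 5585 in both WT libraries, the highest value that any library held, and made up most of each sum. It was not among the 4, with a limma adjusted *p* of 0.0636. The 6 mesenchyme markers summed to 2070 and 2443 in WT and 134 to 2890 in KO, with 0 called. The 7 pluripotency markers summed to 439 and 882 in WT and 38 to 60 in KO, and all 6 that were tested were lower. The defining marker *POU5F1* was 75 and 236 in WT and 3 to 6 in KO. Of the genes called lower in these lists, *POU5F1*, *TDGF1*, *L1TD1*, *APOB*, *RBP4* and *SERPINA1* passed the filter on low values only through the WT libraries. Neuron markers summed to 151 and 296 in WT and 370 to 1907 in KO (2 of 6 tested higher), and neural progenitor markers to 528 and 703 in WT and 970 to 1070 in KO (2 of 7 higher). In the progenitor list *VIM* was the largest part of each sum, at 316 and 354 in WT and 550 to 748 in KO. *PAX6*, *SOX1* and *NES* did not overlap between the groups either, whereas *SOX2*, *HES5* and *FABP7* did.

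Smaller lists followed. The 3 choroid plexus markers measured, 1 of which (*TTR*) is also on the endoderm list, summed to 482 and 517 in WT and 51 to 197 in KO, with 1 lower. That 1 was *TTR*, which alone was 424 and 471 in WT and 22 to 130 in KO. The others overlapped: *KCNJ13* was 11 and 10 in WT and 8 to 14 in KO, and *OTX2* 47 and 36 in WT and 18 to 53 in KO. The 2 surface ectoderm markers measured summed to 142 and 163 in WT and 12 to 54 in KO, with 1 lower. *KDR*, the only 1 of 5 endothelium markers measured, was 24 and 21 in WT and 1 to 8 in KO, and *HBE1*, the only 1 of 6 erythroid markers, was 31 and 29 in WT and 0 to 1 in KO, and both were lower. *KDR* and *HBE1* passed the filter on low values only through the WT libraries. The 10 genes of the unfolded protein and amino acid stress response summed to 474 and 598 in WT and 273 to 368 in KO, with *ATF3* and *DDIT3* lower of 8 tested. The part of any marker list in the values of *SLC2A3*, *PGK1* or *ADM* was not tested. On day 12, when 0 members were called, the endoderm list summed to 1 to 20 in all 6 libraries and the mesenchyme list to 27 to 49, while the pluripotency list was 814 and 1032 in WT and 460 to 522 in KO. *POU5F1*, *TDGF1* and *DNMT3B*, 3 of the 6 pluripotency markers tested, were called lower in KO on day 12, where 6 genes of the whole table were. Of these, *TDGF1* passed the filter on low values on day 12 only through the WT libraries.

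One KO library carried such markers too. KO#10 replicate 1 of day 24 had 1229 for the endoderm and yolk sac list (902 of it *AFP*) and 2890 for the mesenchyme list. The other 3 KO libraries had 33 to 90 and 134 to 168. In this library *SLC2A3* was 22, the same as in KO#10 replicate 2, *PGK1* was 190, within the range of the other KO libraries, and *ADM* was 3, against 0 to 1 in those. In 4 of the 10 members, *ALDOA* (167), *LDHA* (264), *PDK1* (20) and *ADM*, this library was nearer to the WT mean on the log2 scale than any other KO library. So it was for 11 of the 19 other named pathway genes, among them *P4HA1* (50), *NDRG1* (10), *SLC16A3* (15), *EPAS1* (6), *PFKP* (17), *FAM162A* (32) and *ALDOC* (36), and for 41.4% of all genes tested. The result for *SLC2A3* was as large without this library, at a log2 difference of -2.96.

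**Figure D5:**
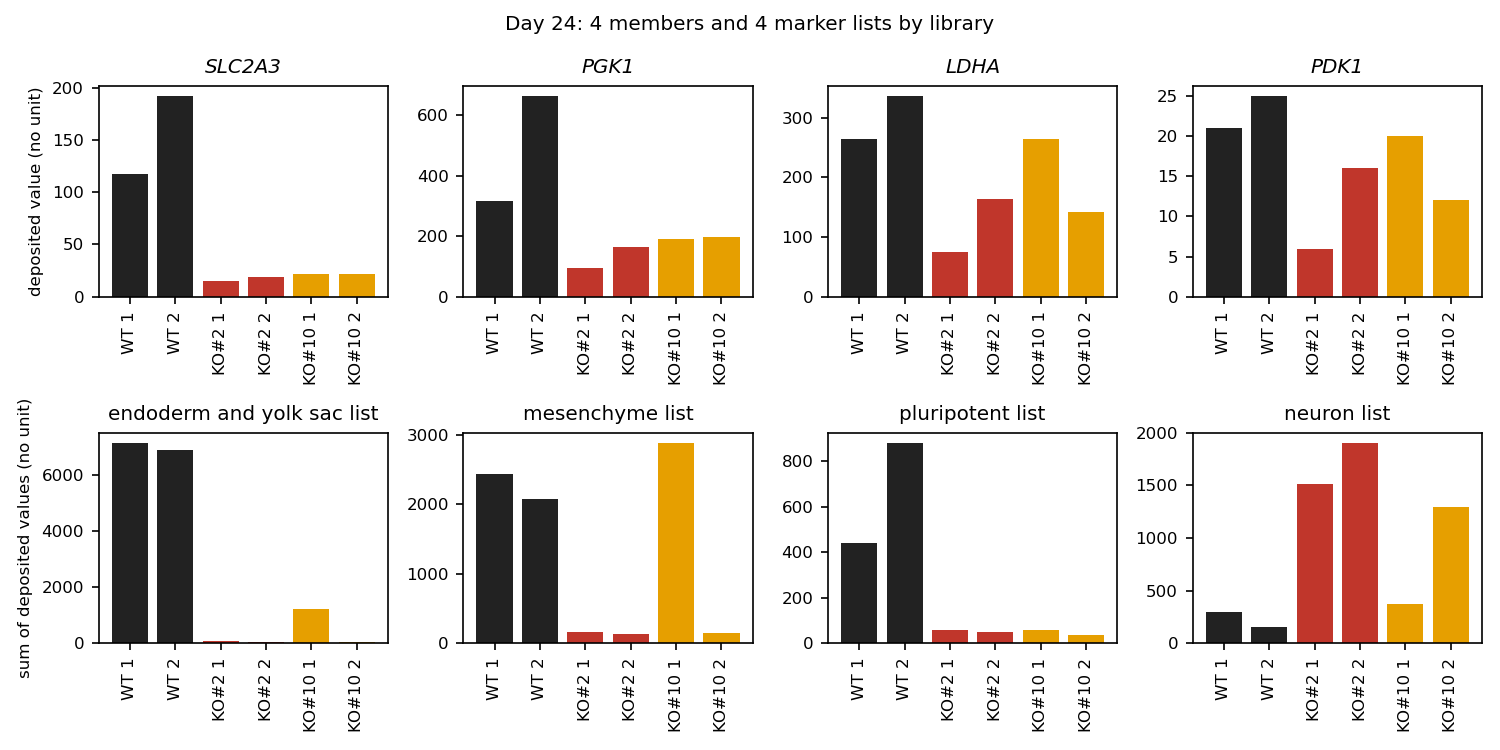
Deposited values of 4 members (top) and summed deposited values of 4 marker lists (bottom) in each of the 6 libraries of day 24, on linear axes from 0 without a unit; bars are single libraries (black WT, red KO#2, orange KO#10). KO#10 replicate 1 has a mesenchyme sum of 2890, above both WT libraries, while its *SLC2A3* value is 22.

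Finally, the genes whose pattern over the 12 libraries was most like the mean of the scaled members were sought outside all lists. They were *NFXL1* (Pearson's r = 0.950 over the 12 libraries), *ASMTL* (0.948), *KANK1* (0.943), *ZYX* (0.942) and *PYGL* (0.938). The points share lines, days and replicate numbers, so that r only describes likeness. *PYGL*, the liver form of glycogen phosphorylase, which frees glucose from glycogen, was 15 and 20 in WT on day 24, against 3 and 5 in KO#2 and 8 and 4 in KO#10. As the gene was found by its likeness to the members in these same libraries, no test of it is given.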

How the data were processed

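Total RNA of pooled COs was depleted of ribosomal RNA and sequenced. The authors deposited 1 table per library with a whole-number score for each of 10976 genes. The scores are not read counts: the libraries shared their median and highest value, had 269 to 271 distinct values each and summed to 473637 to 483149. How the authors normalised and rounded them is not given in the sources used here, so that depth, counting error and scaling by gene length are unknown. The submitters' processing notes name bcl2fastq, Bowtie2 and RSEM without versions, and the build mm10, a mouse build, while the gene identifiers and positions are human. Positions are printed as deposited. Whether the counting used the strand is not stated.

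Groups came from the sample labels. Of each value, 1 was added and log2 taken. A gene entered a fit if 2 or more of its libraries reached 10, and was tested with limma 3.58.1 in R 4.3.3 (lmFit, eBayes with a variance trend), with Benjamini-Hochberg adjustment within each of 9 comparisons. All 10 members passed that filter in the main fit of every comparison. In KO against WT, 9 were tested when either WT library was left out: *PDK1* dropped out on day 12 and *ADM* on day 24. With a mean of at least 20 as the filter, 8 were tested. The KO and WT libraries of a day were compared in a fit of their own with both clones pooled. The day contrasts and the interaction used all 12 libraries in 4 groups, and the clones were compared in fits with 3 groups. The fit was tested on simulated data. Over the 9 comparisons it recovered 96% to 100% of log2 changes of 3 and 67% to 96% of log2 changes of 1.5. It also called 2 to 11 unchanged genes per comparison. This is no check of the results themselves. The added 1 shrinks the fold of low genes. The members and the lists (glycolysis, transport, HIF regulators, HIF targets, pyruvate, pentose phosphate, stress response and 9 cell type lists) were chosen with earlier results of these data known. The text names the members, every gene of the 6 pathway lists called in at least 1 of the 5 main comparisons, the 5 genes outside the lists most correlated with the members' scaled mean, *JUN*, and markers beside a result. Replicate numbers come from the labels: the replicate 2 minus replicate 1 differences of 2 lines correlated over genes at 0.428 to 0.598 on day 12, where the numbers were taken to pair the libraries, and at -0.106 to 0.346 on day 24, where they were not. Alternatives were other filters, constants, thresholds, scaling, blocks, groupings and the removal of single libraries. Sequences came from RefSeq (GRCh38.p14).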

Additional observations from a re-analysis of the deposited data

Results flagged for a closer look

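The interaction of genotype and day, tested with limma over all 12 libraries, differed between WT and KO for 5 of the genes named here, each with a lower KO minus WT difference on day 24 than on day 12 on the log2(value + 1) scale. It was -2.46 for *SLC2A3*, -2.03 for *NDRG1*, -1.97 for *P4HA1*, -1.69 for *MPC2* and -1.63 for *SLC16A3*. The call of *SLC2A3* held in all 22 alternatives, whereas those of the other 4 were lost in 7 (*MPC2*) to 14 (*SLC16A3*). In all 5, the WT libraries of day 24 were the highest of the 12, and *NDRG1* passed the filter on low values only through them. No explanation was tested. None of the 10 members had a KO library far enough from the other 3 of its day to be singled out by Dixon's criterion, in 20 such looks, of which chance alone would single out about 1 in 20.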

How the results depend on the processing

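Over 44 called values of the named genes, 722 of 900 alternative values kept their call, 178 lost it and 0 changed sign. Runs without adjustment of *p* or without the fold limit only relaxed the rule, so no call could be lost in them. Changes of filter, variance trend, block or grouping left the log2 difference as it was, so no sign could change there. Counts of alternatives, here and above, include such runs and overstate how firm a call is. Of 972 alternatives of 51 values that were not called, 36 passed the threshold and 33 changed sign. The removal of single libraries decided most counts of members. On day 24, KO against WT gave 0 to 4 members lower (2 with all libraries), KO#2 alone 0 to 2 (2) and KO#10 alone 0 in each case (1). Day 24 against day 12 gave 0 to 3 members higher in WT (2) and 0 to 1 in KO (0), and the interaction 1 to 2 lower (1). In WT over time, 1 member was higher with no filter, with 5 added before the logarithm, without the variance trend or with the clones as separate groups, and 0 with only the WT libraries. In KO over time, 1 (*PDK1*) was higher with no fold limit or with 0.1 added. The interaction called 4 members lower without adjustment of *p*. KO#2 on day 24 gave 6 lower without adjustment, 1 with no filter or no variance trend, 4 with 5 added and 5 with all 12 libraries in 1 fit, and KO#10 gave 3 without adjustment and 2 with all 12 libraries in 1 fit.

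With the replicate number as a block, the interaction called 2 members lower (and 129 genes higher and 186 lower over all genes, against 45 and 85 without it), KO#2 on day 24 gave 3 and KO#10 on day 24 gave 0. On day 24 and across the days the numbers did not pair the libraries. The counts of members called were the same with the block in the other 6 comparisons.

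Signs changed only for log2 differences that missed the threshold. With single libraries left out, KO against WT on day 12 ranged from -0.68 to 0.54 for *ADM*, -0.51 to 0.22 for *ALDOA*, -0.12 to 0.10 for *BNIP3*, -0.38 to 0.42 for *ENO1*, -0.061 to 0.35 for *LDHA* and -0.90 to 0.44 for *PGK1*. On day 24 *ENO1* ranged from -0.43 to 0.023. Day 24 against day 12 in WT ranged from -0.71 to 0.51 for *ADM*, -0.16 to 0.78 for *ALDOA*, -0.35 to 0.45 for *ENO1*, -0.77 to 0.085 for *SLC2A1* and -0.0050 to 0.56 for *VEGFA*, and in KO from -0.56 to 0.041 for *LDHA* and -0.040 to 0.32 for *PGK1*. The interaction ranged from -0.62 to 0.17 for *ENO1* and -0.22 to 0.31 for *PDK1*, which was 0.041 with 0.1 added.

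Counts over all genes moved more with the settings. KO against WT on day 24 called 392 higher and 352 lower (172 to 758 and 116 to 602 under other settings, 1 to 722 and 1 to 624 with a library left out, the lowest without WT replicate 2), and on day 12 2 and 6 (0 to 80 and 1 to 65). Day 24 against day 12 called 714 and 784 in WT (275 to 1354 and 420 to 1577) and 585 and 556 in KO (190 to 1875 and 290 to 1895), the interaction 45 and 85 (21 to 449 and 26 to 515, and 1 to 419 and 10 to 497 with a library left out), KO#2 440 and 396 (225 to 772 and 166 to 690, and 0 to 407 and 0 to 434 with a library left out) and KO#10 13 and 13 (0 to 387 for both). Where a library was left out of a line, the lone sample left was assumed to vary like the other groups. The cause of these shifts was not tested. Depth is unknown.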
